A study of Mus musculus with 2 samples.

Results

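The 41 genes described here encode the enzymes and regulators with which a cell makes, exports and burns cholesterol and fatty acids. They were taken as the rows whose gene name equals a member of a fixed list, and all 41 were found, each on 1 row, among 34745 gene rows. RNA was sequenced from splenic regulatory T (Treg) cells, sorted as CD4+ cells carrying the yellow fluorescent reporter of Foxp3Cre, from C57BL/6 mice at 2 weeks of age. The wild-type library came from poh1+/+ Foxp3Cre+ mice and the knockout library from poh1fl/fl Foxp3Cre+ mice, so the control cells carry the Cre allele too. Deletion is directed to cells that express Foxp3, and deletion in other cells was not measured here. There was 1 library per genotype, and the sources used here do not say whether it pools mice. POH1 is the protein of Psmd14, the deubiquitinase of the proteasome lid.

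Sterol and fatty acid genes are largely run by the SREBP transcription factors. While sterol is plentiful, INSIG proteins hold the SREBPs in the endoplasmic reticulum with their escort SCAP. When sterol is scarce, the SREBPs are cut and released to the nucleus. Excess sterol acts in the opposite sense through the liver X receptors (LXR), nuclear receptors that turn on export pumps and also the Srebf1 gene. Dividing lymphocytes build membrane from both pathways, and Treg cells are known to use the mevalonate pathway and fatty acid oxidation.

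With 1 library per genotype there is no replicate spread and no test. A gene's level is given as CPM, its counts scaled to library size with TMM factors, and its knockout to wild-type ratio with an exact 95% counting interval in parentheses, which does not cover differences between mice. A gene is called higher or lower where that whole interval lies beyond 1.5-fold. By this rule 21.9% of 13464 measured genes were called (9.58% higher and 12.3% lower in the knockout library), a gene being measured when either library reached 1 CPM. Where 2 values stand together, the wild-type value comes first and the knockout value second. Total counts were 18124611 and 14544212. Psmd14 was at 89.4 and 31.8 CPM, 2.81-fold lower in the knockout library (2.53 to 3.12). The 9 Treg and T cell markers summed to 6016 and 6018 CPM, but 2 were called higher and 2 lower. Foxp3 had a ratio of 1.60 (1.56 to 1.64) and Il2ra, the most abundant, of 1.55 (1.52 to 1.58), against 0.628 (0.613 to 0.643) for Ctla4 and 0.637 (0.620 to 0.655) for Ikzf2. In bulk RNA, fewer cells of a type and less RNA per cell cannot be told apart.

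Of the 41 genes, 7 were called in the knockout library. The sterol exporters Abca1 and Abcg1 and the regulator Srebf1 were higher, and the sterol synthesis genes Idi1 and Cyp51 and the fatty acid desaturases Scd1 and Fads1 were lower. These 3 higher and 4 lower genes are 17.1% of the members, below the 21.9% of all measured genes, so the number of calls is not a result about the set. The median log2 ratio was -0.02 over the 41 genes and -0.01 over all measured genes, and 25 of the 41 lay between the quartiles of all measured genes, -0.44 and 0.39. An interval that excluded a ratio of 1 was found for 24 members, 10 above and 14 below, against 69.6% of all measured genes. The reads of the 41 genes together stood at 2998 and 3040 CPM. Differences lay between single genes, in places between neighbouring steps of a pathway.

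**Figure D1:**
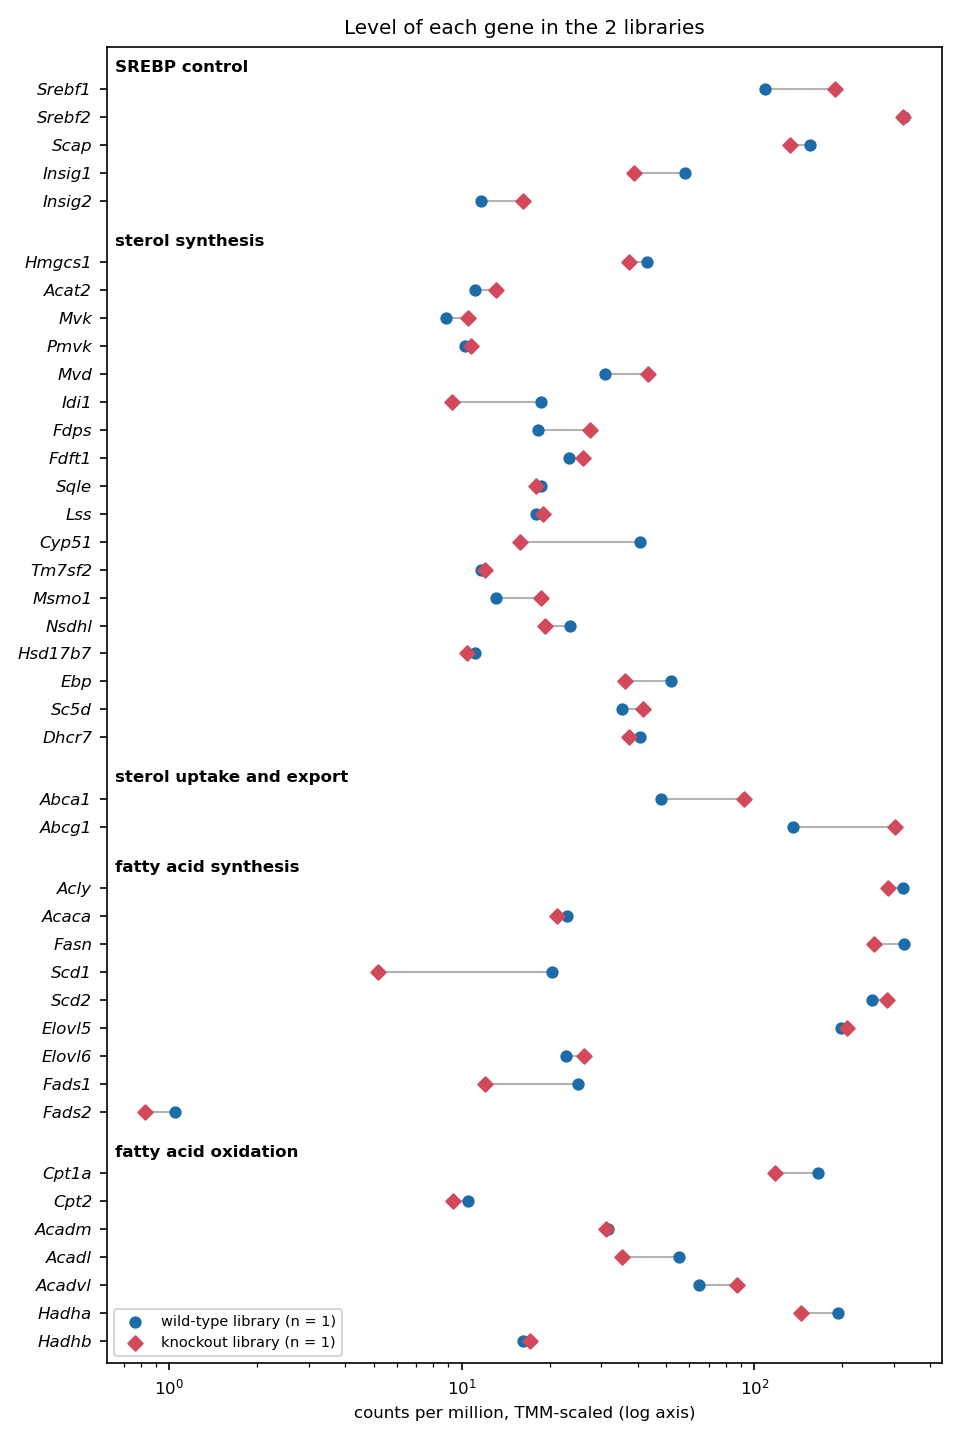
Level of each of the 41 genes in CPM on a log axis, by class, with a circle for the wild-type and a diamond for the knockout library (1 library each, no error bar). Wide gaps stand at Scd1, from 20.4 to 5.16 CPM, Cyp51, from 40.7 to 15.8 CPM, and Abcg1, from 136 to 302 CPM.

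The SREBP control class was split between its members. Srebf1, which encodes the SREBP that favours fatty acid genes, had 1965 and 2739 counts, or 108 and 188 CPM. Its ratio was 1.74 (1.64 to 1.84), the 1 call among the 5 genes of this class (20%, against 21.9% of all measured genes). Srebf2, whose product favours sterol synthesis genes, was level at 325 and 323 CPM, a ratio of 0.996 (0.959 to 1.04). Srebf1 supplied 24.1% to 26.0% of the reads of the pair in wild type (exact interval) and 36.8% (35.7% to 37.9%) in knockout, a share that needs no scaling between libraries. Per length, in the authors' FPKM, Srebf2 remained above Srebf1 in both libraries, at 65.0 against 11.8 and 64.8 against 20.5. The size of that gap depends on the lengths used, since Srebf1 was 0.181 and 0.316 of Srebf2 in FPKM and 0.426 and 0.742 of it per kilobase of annotated exon. Srebf1 lies at chr11:60199089-60222581 on the minus strand (mm10), a protein-coding gene whose exons overlap other genes over 3.11% of their length. The gene has several start sites, and gene counts do not separate its isoforms.

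The remaining members of this class act on the SREBP proteins. Scap, the escort, was at 155 and 133 CPM, a ratio of 0.856 (0.807 to 0.907), and 13.2% of its exon length overlaps another gene. Insig1, an endoplasmic reticulum anchor that is itself an SREBP target, was at 58.0 and 38.8 CPM with a ratio of 0.670 (0.603 to 0.742), and its relative Insig2 at 11.6 and 16.2 CPM with a ratio of 1.39 (1.15 to 1.69). Neither passed the rule, and their ratios lay on opposite sides of 1. The share of Insig1 in the reads of both was 83.3% (81.2% to 85.4%) and 70.6% (67.3% to 73.8%). The class median of -0.01 on the log2 scale turned to 0.03 with upper-quartile scaling.

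Around this core, 7 genes of SREBP cleavage and INSIG turnover were read. Erlin1, an endoplasmic reticulum scaffold of sterol-triggered protein degradation, was at 17.6 and 6.25 CPM, 2.81-fold lower (2.22 to 3.59). It was the 1 call, 14.3% of the list against 21.9% of all measured genes. The others named here were chosen for their role after the values were seen. Erlin2, the partner of Erlin1, had a ratio of 0.971 (0.858 to 1.10). The proteases that cut SREBP, Mbtps1 and Mbtps2, had ratios of 1.16 (1.10 to 1.22) and 1.43 (1.24 to 1.66).

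Among the 18 sterol synthesis genes 2 were lower, 0 were higher and 16 were neither. That is 11.1% called, against 21.9% of all measured genes, and the median log2 ratio was 0.05. The early steps make isoprenoid building blocks from acetyl-CoA. Acat2, here the cytosolic thiolase that starts the chain, was at 11.1 and 13.1 CPM, and Hmgcs1, the synthase that follows it, at 42.9 and 37.3 CPM with a ratio of 0.869 (0.777 to 0.971). The mevalonate kinases stayed close to even, Mvk with a ratio of 1.19, whose interval held 1, and Pmvk with 1.04 (0.839 to 1.30).

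Idi1, which isomerises the isoprene unit, stood apart from the genes of the steps on either side. It had 338 and 135 counts, or 18.7 and 9.28 CPM, 2.01-fold lower (1.64 to 2.47). Mvd, which makes the substrate of Idi1, was at 31.0 and 43.4 CPM, a ratio of 1.40 (1.25 to 1.57). Fdps, which joins the isoprene units, was at 18.2 and 27.5 CPM, a ratio of 1.51 (1.31 to 1.76) that did not clear the rule at its lower end. Of the reads of Idi1 and Fdps together, Idi1 held 50.7% (46.8% to 54.5%) and 25.2% (21.6% to 29.1%). Idi1 lies at chr13:8885501-8892451 on the plus strand, with 9.21% of its exon length shared with another gene. Exons of Fdps overlap Gm43738, a protein-coding gene model on the same strand with 29 and 20 counts, over 26.7% of their length.

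The squalene steps did not differ beyond counting error. Fdft1, the squalene synthase, had a ratio of 1.12 (0.976 to 1.29), with 18.3% of its exon length shared with Ctsb. Sqle, which oxidises squalene, was at 18.6 and 17.9 CPM, and Lss, which closes it to lanosterol, had 325 and 276 counts. Their ratios were 0.961 (0.814 to 1.13) and 1.06 (0.898 to 1.25).

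Cyp51, the demethylase that acts first on lanosterol, was the lowest sterol synthesis gene relative to wild type. It had 737 and 230 counts, or 40.7 and 15.8 CPM, a ratio of 0.389 (0.334 to 0.451). It lies at chr5:4081145-4104746 on the minus strand, with 3.76% of its exon length shared with Akap9. The genes of the next steps did not follow. Tm7sf2, a sterol reductase, had a ratio of 1.03 (0.841 to 1.27), and Msmo1, the oxidase that starts removal of the remaining methyl groups, was at 13.1 and 18.6 CPM with a ratio of 1.42 (1.19 to 1.70). Cyp51 held 75.7% of the reads of Cyp51 and Msmo1 (72.8% to 78.3%) and 45.9% (41.5% to 50.4%).

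The ratios of the last steps lay within 1.5-fold, though the interval of Ebp reached beyond it. Nsdhl and Hsd17b7, which complete demethylation, had ratios of 0.825 (0.707 to 0.962) and 0.942 (0.758 to 1.17). Ebp, the sterol isomerase, was at 51.9 and 36.0 CPM, a ratio of 0.694 (0.622 to 0.773). Sc5d, a desaturase, had a ratio of 1.18 (1.06 to 1.32) and Dhcr7, the closing reductase, a ratio of 0.917 (0.819 to 1.03). The 18 genes summed to 429 and 406 CPM.

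**Figure D2:**
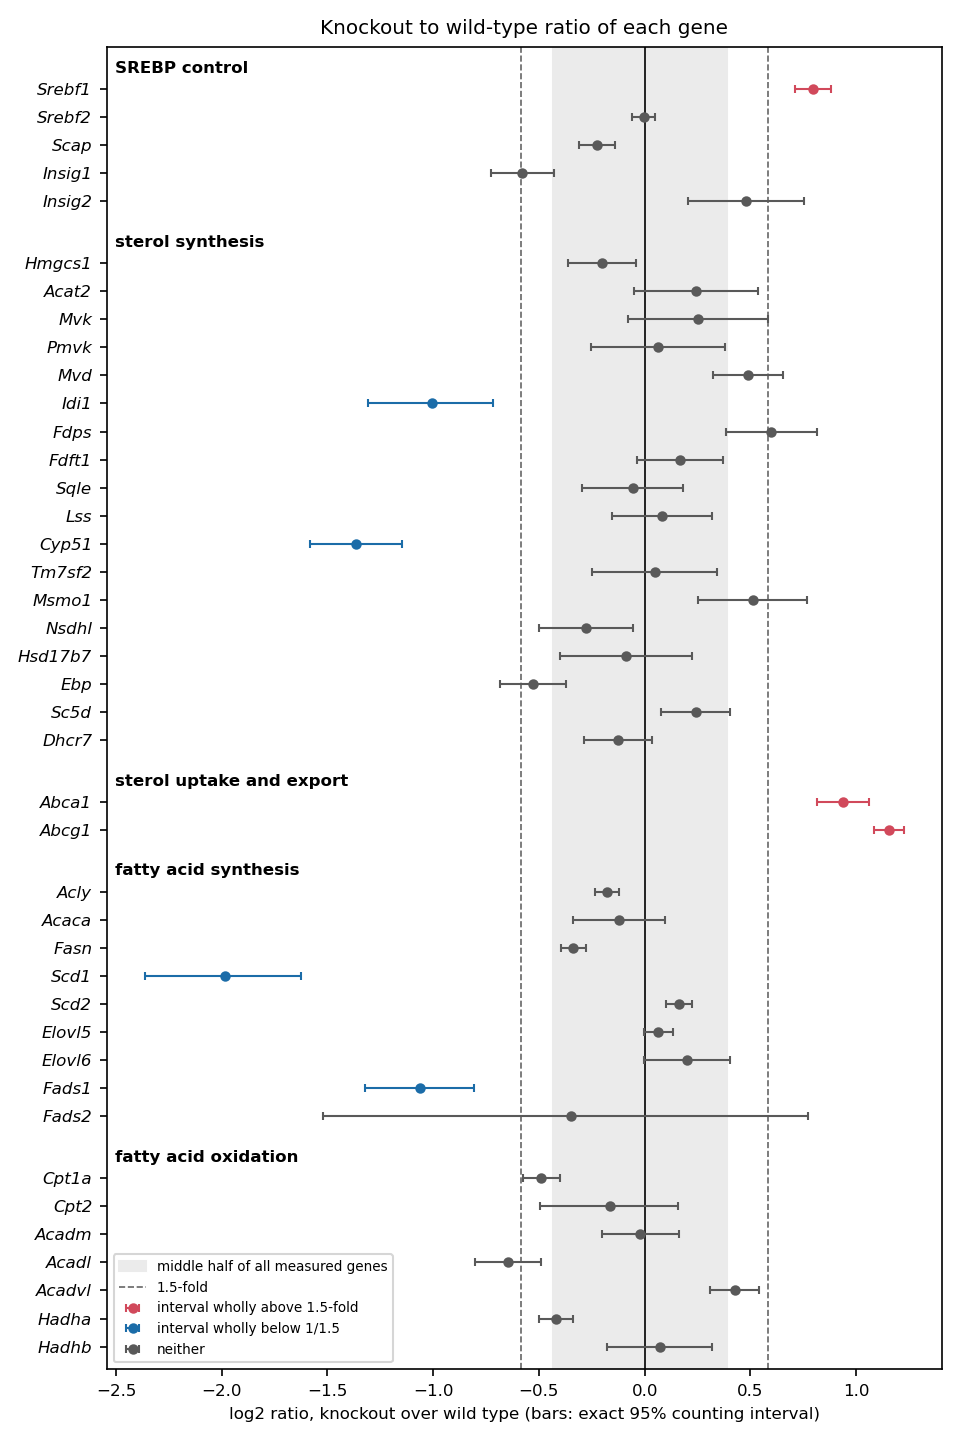
Log2 ratio of knockout to wild type for each of the 41 genes, in the order of the fixed list within each class. Bars are exact 95% counting intervals, dashed lines stand at 1.5-fold and shading lies between the quartiles of all measured genes. Idi1 at -1.01 and Cyp51 at -1.36 stand left of neighbouring steps such as Fdps at 0.60 and Msmo1 at 0.51, while Abca1 at 0.94 and Abcg1 at 1.15 lie beyond the right dashed line.

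The isoprenoid branch turns farnesyl and related units into protein lipid anchors, ubiquinone and dolichol. It had 0 of 14 genes past the rule, against 21.9% of all measured genes, and a median log2 ratio of 0.01. Its ends, named after the values were seen, lay at 0.577 (0.450 to 0.734) for Pdss1, of ubiquinone synthesis, and 1.31 (1.09 to 1.58) for Fntb, a farnesyltransferase subunit.

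Promoter sequence is shown for genes of the control, synthesis and export classes, because letters known from SREBP-driven promoters can be read in them. SREBPs act together with the factors NF-Y, which binds the CCAAT box, and Sp1, which binds GC boxes. RefSeq promoters of GRCm38.p6 were matched by symbol for 34 of the 41 members, and the 250 bases before each start were searched on both strands. A gene was counted if any of its starts held the letters, so genes with several starts had more chances. The symbols set beside the members were all those with a promoter, whether or not they were measured here. CCAAT stood in the promoters of 14 of 15 sterol synthesis genes and 4 of 5 SREBP control genes, against 37.5% of all 27025 symbols. In the fatty acid classes it stood in 2 of 6 synthesis and 1 of 7 oxidation genes. The GC box GGGCGG was found in 27 of the 34 members and in 35.4% of all symbols. It stood in 14 of 15 sterol synthesis, 5 of 5 SREBP control, 5 of 7 fatty acid oxidation and 2 of 6 fatty acid synthesis genes. The E-box CACGTG was in 3 of 15 sterol synthesis genes and in 6.86% of all symbols. The longer sterol regulatory element, and the direct repeats known for LXR and PPAR with their partner, were in 0 of the 34 members and in 0.0814%, 0.0148% and 0.0407% of all symbols in the spellings searched.

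The windows show Srebf1 and Abca1, which were higher, Cyp51, which was lower, and Mvd and Insig1, which were not called. Capitals mark the CCAAT box, the GC box and the E-box on either strand, and no marked strings overlap. The windows run 5′ to 3′ along the gene and leave out bases within annotated exons, so those of Cyp51 and Insig1 end 49 bases before the RefSeq start. Abca1 is chr4:53159896-53160145 on the minus strand, Srebf1 is chr11:60210472-60210721 on the minus strand (an internal start), Cyp51 is chr5:4104747-4104947 on the minus strand, Mvd is chr8:122443423-122443672 on the minus strand and Insig1 is chr5:28071162-28071362 on the plus strand.
Abca1: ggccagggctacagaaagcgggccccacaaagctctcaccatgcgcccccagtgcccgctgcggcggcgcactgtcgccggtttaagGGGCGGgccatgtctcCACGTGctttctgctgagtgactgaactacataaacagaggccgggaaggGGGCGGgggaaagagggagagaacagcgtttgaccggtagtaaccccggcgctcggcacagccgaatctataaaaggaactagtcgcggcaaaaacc
Srebf1: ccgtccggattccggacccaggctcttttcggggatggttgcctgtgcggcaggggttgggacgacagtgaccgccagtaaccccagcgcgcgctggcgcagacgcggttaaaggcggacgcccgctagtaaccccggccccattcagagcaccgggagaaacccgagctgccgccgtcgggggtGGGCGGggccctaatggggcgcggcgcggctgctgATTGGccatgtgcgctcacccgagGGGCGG
Cyp51: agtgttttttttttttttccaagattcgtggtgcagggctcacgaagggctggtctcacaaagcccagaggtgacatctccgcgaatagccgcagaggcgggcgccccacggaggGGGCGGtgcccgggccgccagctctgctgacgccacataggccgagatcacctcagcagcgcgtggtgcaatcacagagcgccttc
Mvd: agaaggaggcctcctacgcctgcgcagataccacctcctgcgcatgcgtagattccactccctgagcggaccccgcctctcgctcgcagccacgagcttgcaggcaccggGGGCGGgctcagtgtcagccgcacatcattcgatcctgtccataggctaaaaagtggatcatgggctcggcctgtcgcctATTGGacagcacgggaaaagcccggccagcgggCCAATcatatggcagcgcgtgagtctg
Insig1: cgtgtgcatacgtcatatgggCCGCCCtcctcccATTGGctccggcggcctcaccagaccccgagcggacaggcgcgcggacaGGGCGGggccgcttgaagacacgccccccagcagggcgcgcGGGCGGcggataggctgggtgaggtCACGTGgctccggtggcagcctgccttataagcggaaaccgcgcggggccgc
Abca1 holds 2 GC boxes and 1 E-box and 0 CCAAT letters, this start of Srebf1 holds 2 GC boxes and 1 CCAAT box, and Insig1 holds all 3 kinds. Of the other starts of Srebf1, the window from 60220628 holds 2 GC boxes and 0 CCAAT boxes, and the window from 60222582 holds 1 CCAAT box and 0 GC boxes. Mvd holds 2 CCAAT boxes and 1 GC box. The window of Cyp51 holds 1 GC box and 0 CCAAT boxes, and its CCAAT box lies in the bases left out. A match is a string of letters and not a measured binding site.

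The export class, Abca1 and Abcg1, was higher in the knockout library in both members. Both encode transporters that load cholesterol onto lipoproteins, and both are known LXR targets. Abca1 had 870 and 1337 counts, or 48.0 and 91.9 CPM, 1.91-fold higher (1.76 to 2.09). Abcg1 had 2459 and 4395 counts, or 136 and 302 CPM, 2.23-fold higher (2.12 to 2.34). Abcg1 was the 1 member still called higher when 2-fold was asked for. Abca1 lies at chr4:53030787-53159895 on the minus strand and Abcg1 at chr17:31057675-31117988 on the plus strand, with 0% of their exon length shared with other genes. Per length Abcg1 was 7.11 and 8.27 times Abca1 on the FPKM scale, and 4.01 and 4.67 times per kilobase of annotated exon.

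Macrophages express these transporters strongly, so their markers are set beside them. Of 10 macrophage and monocyte markers 2 were higher, 1 was lower and 0 were at 0 counts. That is 30% called, against 21.9% of all measured genes. The 10 markers summed to 374 and 394 CPM. Vcam1, the most abundant of them in counts, was at 115 and 120 CPM. The higher markers were Marco, with 84 and 317 counts and a ratio of 4.70 (3.68 to 6.05), and Csf1r, with 958 and 1340 counts and a ratio of 1.74 (1.60 to 1.89), and the lower marker was Hmox1, 1.69-fold lower (1.56 to 1.84). The part of these cells in the level of Abca1 and Abcg1 was not tested.

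Of 21 further genes of sterol sensing, esterification and transport 19 were measured, with 2 higher and 5 lower. These calls are 36.8% of the measured genes of the list, against 21.9% of all measured genes. The median log2 ratio of the list was -0.23. Higher were Npc2, the soluble carrier that moves cholesterol out of lysosomes, at 179 and 373 CPM with a ratio of 2.08 (2.00 to 2.18), and Abca7, a relative of Abca1, at 293 and 479 CPM with a ratio of 1.63 (1.58 to 1.69). Lower was Tmem97, a sterol-regulated membrane protein, at 15.7 and 5.02 CPM, 3.12-fold lower (2.41 to 4.10). The sterol carrier gene Stard4 was 2.07-fold lower (1.83 to 2.33) and the lipoprotein receptor gene Scarb1 2.02-fold lower (1.74 to 2.37).

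Abcg4, an exporter, had 45 and 5 counts and reached 1 CPM in the wild-type library alone, so its place among the lower genes follows in part from the filter. Gramd1a, which carries plasma membrane cholesterol inward and is named here to complete the calls, was at 354 and 188 CPM, 1.89-fold lower (1.80 to 1.97). The LXR genes themselves, chosen for their role after the values were seen, were not called. Nr1h2 was at 118 and 145 CPM, a ratio of 1.23 (1.16 to 1.31), and Nr1h3 at 4.19 and 5.09 CPM, a ratio of 1.21 (0.868 to 1.69). Mylip, an LXR-induced ubiquitin ligase chosen in the same way, had a ratio of 1.42 (1.30 to 1.55). The genes named here as LXR targets were not taken from a full list of such targets, and LXR activity was not tested.

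Fatty acid synthesis had 0 of 9 genes higher and 2 lower, 22.2% called against 21.9% of all measured genes, and a median log2 ratio of -0.18. The enzymes that make palmitate were close to even. Acly, which yields cytosolic acetyl-CoA, was at 323 and 286 CPM with a ratio of 0.884 (0.850 to 0.920). Acaca, the committing carboxylase, had a ratio of 0.919 (0.790 to 1.07). Fasn, the synthase, was at 325 and 257 CPM with a ratio of 0.792 (0.760 to 0.825), so it lay further from 1 than Acly with an interval that did not touch that of Acly.

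The desaturases were where this class split. Scd1, which places the first double bond in saturated fatty acids, had 370 and 75 counts, or 20.4 and 5.16 CPM, 3.96-fold lower (3.08 to 5.15), the lowest ratio of the 41 genes. Its neighbour and relative Scd2 was at 253 and 283 CPM, a ratio of 1.12 (1.07 to 1.17). Scd1 held 7.47% of their joint reads (6.75% to 8.23%) and 1.79% (1.41% to 2.24%), so Scd2 was the main form in both. On the FPKM scale the level of Scd1 was 0.0910 of that of Scd2 and 0.0205. Scd1 lies at chr19:44394455-44407879 on the minus strand, and Scd2 at chr19:44293674-44306864 on the plus strand. They are close copies, and the treatment of reads that match both is not described in the labels.

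Fads1, a desaturase of polyunsaturated fatty acids, had 452 and 174 counts, or 24.9 and 12.0 CPM, 2.09-fold lower (1.75 to 2.50). It lies at chr19:10182888-10196877 on the plus strand. Fads2, the other desaturase of that route, had 19 and 12 counts, and its ratio of 0.787 (0.348 to 1.71) was too imprecise at this depth to show a difference of the size seen for Fads1. The elongases had ratios of 1.05 (0.996 to 1.10) for Elovl5, at 198 and 207 CPM, and 1.15 (0.997 to 1.32) for Elovl6, at 22.8 and 26.2 CPM. Both intervals held 1.

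Beside the 4 lower members, B cell, erythroid and cell division genes were lower too. Of all measured genes, 12.3% were called lower and 9.58% higher. The 3 measured neutrophil markers had intervals wholly below 1, with 2 called, and the remaining marker lists were mixed or higher. All 8 B cell markers were lower, summing to 126 and 31.9 CPM with 0 at 0 counts, and all 8 erythroid markers were lower, with 1298 and 276 counts in sum (ratio 0.265), also with 0 at 0 counts. Their most abundant members, Cd79b and Hbb-bs, had 469 and 179 and 497 and 117 counts. Of 6 dendritic cell markers, 4 were lower and 0 higher, with sums of 28.1 and 21.1 CPM, with Itgax the most abundant (145 and 201 counts) and with Xcr1 and Clec9a at 0 counts in the knockout library. The 6 neutrophil markers, 2 of 3 measured lower, summed to 11.7 and 3.92 CPM, with Ngp the most abundant (107 and 38 counts), Elane at 0 counts in both libraries and S100a8 and Ly6g at 0 in the knockout library. CD8 T and NK cell markers summed to 21.3 and 49.0 CPM, with 2 of 4 measured higher, Cd8a (134 and 379 counts) and Cd8b1 (206 and 310 counts), and Ncr1 at 0 counts in the knockout library. The 6 stromal and endothelial markers summed to 175 and 190 CPM, nearly all of it Pecam1, with 2 of 4 measured lower, with Col3a1 at 0 in both libraries and Pdgfrb at 0 in the knockout library. All 18 cell division genes were lower, from 3457 to 1359 CPM in sum, with the lowest ratio at Plk1 (1257 and 209 counts). Mki67, the most abundant of them and named after its values were seen, had 20379 and 5010 counts. Among the called markers, Cr2, Klf1, Epor, Xcr1, Clec9a, Mpo, Cdh5 and Col1a1 reached 1 CPM in the wild-type library alone. Their place among the lower markers follows in part from the filter. The part of all these lists in the lower Idi1, Cyp51, Scd1 and Fads1 was not tested.

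Of 20 genes that supply acetyl-CoA, elongate fatty acids or assemble lipids 15 were measured, with 1 higher and 1 lower. These calls are 13.3%, against 21.9% of all measured genes, and the median log2 ratio was 0.16. Lpin1, a phosphatidate phosphatase and known SREBP target, was at 31.1 and 60.7 CPM, 1.95-fold higher (1.75 to 2.17). Acacb, the carboxylase whose product restrains fatty acid entry into mitochondria, had 90 and 26 counts, 2.78-fold lower (1.78 to 4.48). Of 12 genes of fatty acid uptake and activation 9 were measured and 1 was called (11.1%, against 21.9% of all measured genes). It was Acsl1, an acyl-CoA synthetase, at 16.7 and 33.3 CPM with a ratio of 2.00 (1.73 to 2.31). Acsl5, the list's most abundant gene in counts and named after its values were seen, stood at 186 and 123 CPM, a ratio of 0.659 (0.622 to 0.698), and was not called.

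**Figure D3:**
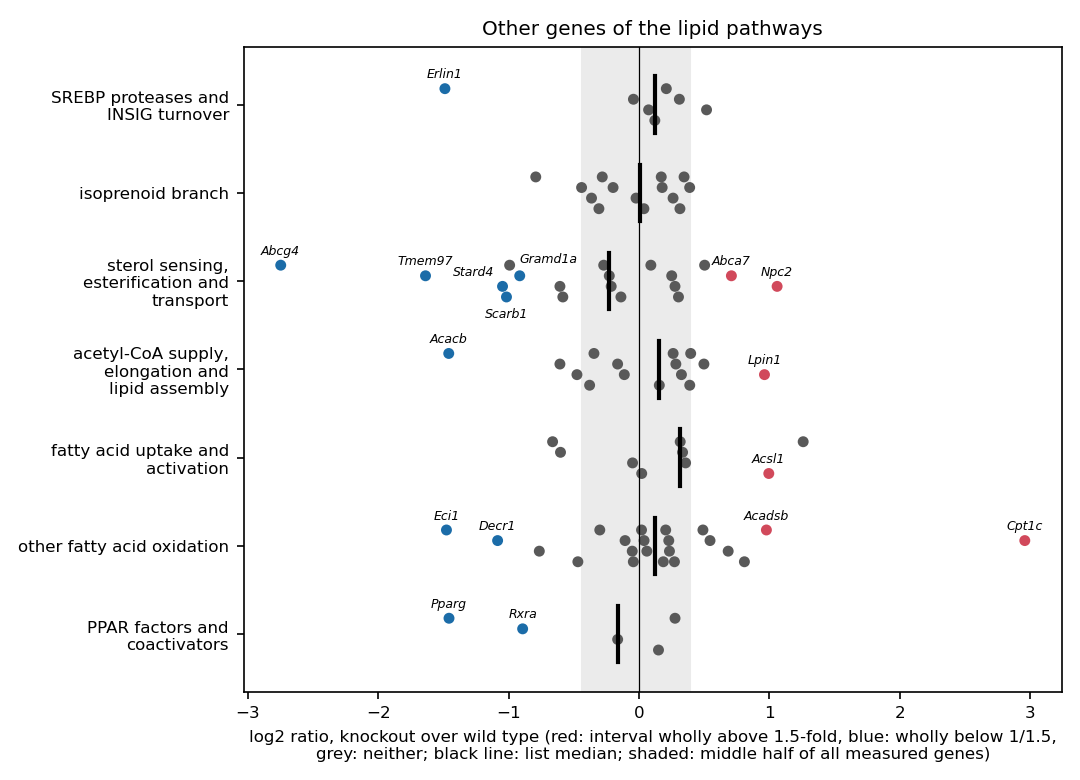
Log2 ratio of knockout to wild type for 91 measured genes of 7 further lipid lists, each point 1 gene, with black lines at list medians and shading between the quartiles of all measured genes. Of these genes 6 were called higher and 11 lower, 18.7% in all, with Npc2 at 1.06 and Tmem97 at -1.64 in the sterol transport row.

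Fatty acid oxidation had 0 of 7 members past the rule in either direction, against 21.9% of all measured genes, and a median log2 ratio of -0.17. Cpt1a, the carnitine palmitoyltransferase that gates entry of fatty acids into mitochondria, was at 166 and 118 CPM, a ratio of 0.713 (0.671 to 0.756). Its inner partner Cpt2 was at 10.5 and 9.35 CPM, a ratio of 0.891 (0.710 to 1.12). Cpt1a held 96.5% of the joint reads with the muscle form Cpt1b (95.8% to 97.1%) and 94.3% (93.2% to 95.4%). Per kilobase of annotated exon Cpt1a was 12.1 and 7.35 times Cpt1b. Exons of Cpt1b overlap Gm44502 on the same strand over 81.4% of their length, so the count of Cpt1b is uncertain to that extent.

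The acyl-CoA dehydrogenases, which take the first step of each cycle on chains of different length, differed from each other. Acadl, for long chains, was at 55.2 and 35.3 CPM with a ratio of 0.640 (0.574 to 0.712), the lowest of this class and close to the rule. Acadm, for medium chains, was at 31.5 and 31.1 CPM. Acadvl, for very long chains, was at 64.8 and 87.0 CPM with a ratio of 1.34 (1.24 to 1.46). Its exons share 42.9% of their length with Dvl2 on the other strand, which had 662 and 574 counts and a ratio of 1.08 (0.964 to 1.21), so the count of Acadvl is uncertain to that extent.

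Hadha and Hadhb encode the subunits of the trifunctional protein, which carries out the remaining steps on long chains, and lie back to back on chromosome 5. Hadha starts at 30155162 and runs along the minus strand, and Hadhb starts at 30155248 and runs along the plus strand. Hadha was at 193 and 144 CPM with a ratio of 0.747 (0.708 to 0.789), and Hadhb at 16.2 and 17.0 CPM with a ratio of 1.05 (0.884 to 1.25). Per length Hadha was 9.77 times Hadhb and 6.95 times on the FPKM scale, and 8.98 and 6.39 times when counts were divided by annotated exon length.

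Of 22 other oxidation genes 4 were called (18.2%, against 21.9% of all measured genes), 2 in each direction, and the median log2 ratio was 0.12. The auxiliary enzymes of unsaturated chains, Eci1 and Decr1, were 2.79-fold (2.20 to 3.58) and 2.12-fold lower (1.73 to 2.63), at 16.9 and 6.05 CPM and at 18.5 and 8.73 CPM. Higher were Acadsb, a dehydrogenase of short branched chains, at 8.22 and 16.2 CPM, 1.97-fold (1.60 to 2.44), and Cpt1c, a carnitine palmitoyltransferase relative best known from brain, with 4 and 28 counts. Cpt1c reached 1 CPM in the knockout library alone, so its place among the higher genes follows in part from the filter. Of 7 PPAR factors, partners and coactivators 5 were measured and 2 were lower, 40% called against 21.9% of all measured genes. Pparg, a nuclear receptor of lipid storage, had 148 and 43 counts, 2.76-fold lower (1.96 to 3.98). Rxra, the shared partner of LXR and PPAR, was at 91.1 and 49.1 CPM, 1.86-fold lower (1.70 to 2.03).

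**Figure D4:**
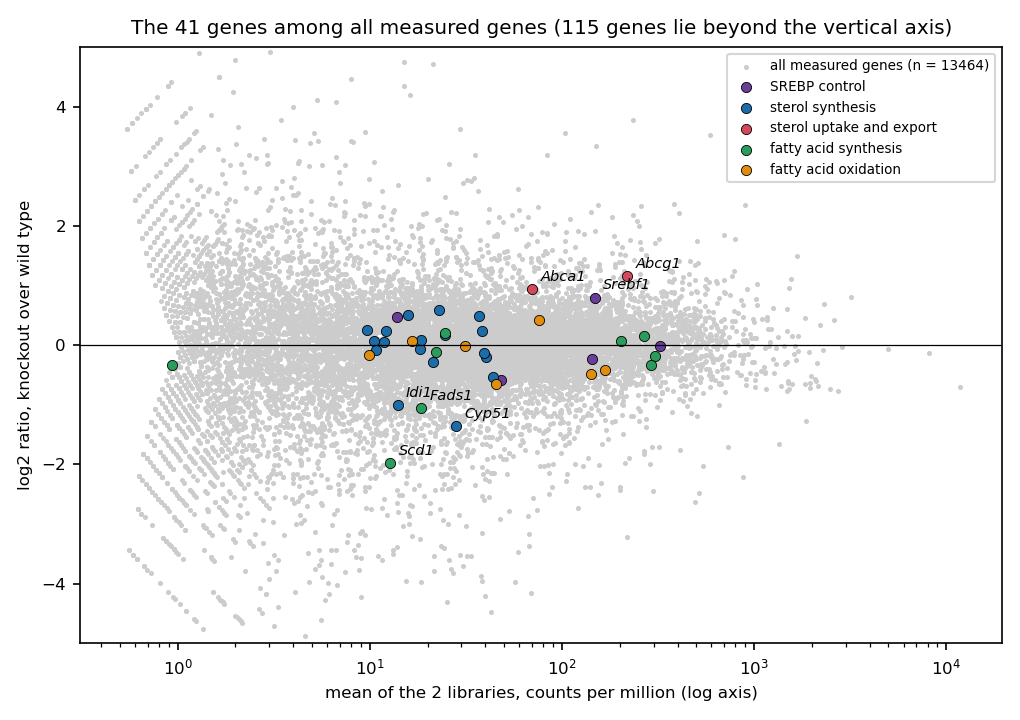
Log2 ratio of knockout to wild type against mean CPM on a log axis, with 13464 measured genes in grey and the 41 genes coloured by class. The 7 called members are named, and 115 genes with a log2 ratio beyond 5 in size are not drawn.

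Abcg1 went from rank 6 to rank 1 of the 41 genes in FPKM, and from rank 14 to rank 5 per kilobase of annotated exon. On the FPKM scale Srebf2 (65.0), Elovl5 (51.1) and Scd2 (46.4) were the highest in the wild-type library, and Abcg1 (71.9), Srebf2 (64.8) and Elovl5 (53.4) in the knockout library. Fads2 (0.695 and 0.547) was the lowest in both. The top of this order depends on the lengths used, since counts per kilobase of annotated exon put Acly first in the wild-type and Elovl5 first in the knockout library. The authors' lengths, read back from count and FPKM, were 1.23 times the annotated exon length at the median of the 41 genes, with a range of 0.458 to 2.22.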

How the data were processed

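TruSeq v2 libraries, which keep no strand information, were made from Trizol RNA of sorted cells, per the labels' protocols. TopHat and HTSeq were used with mm10, per the submitters' processing notes. Their versions, the annotation and the handling of multiply matching reads were not given in the sources used here. The deposited read counts are whole numbers per gene, per the file headers, and the deposited FPKM values scale them by length and library total. In 11848 genes with 20 counts or more in both libraries, count over FPKM differed between libraries by 1.25, the ratio of totals, within 1%, so counts were used and FPKM served for levels between genes. Counts were scaled with TMM factors (edgeR 4.0.16, R 4.3.3), with 0.5 counts added for log2 ratios. Intervals are exact 95% conditional-binomial (Clopper-Pearson) intervals. Reads are not independent molecules, so they cover counting error only. No model was fitted. The calculation was tested on simulated counts that held counting error only, so that test says nothing about differences between mice. Coordinates and exon overlap come from GENCODE M21. The members and lists were chosen with earlier results of these data known. Every member is named. From other lists at most 4 called genes per direction, the most abundant gene of each marker list (counts summed over both libraries) and Psmd14 may be named. Markers at 0 counts are named beside these, as are other genes said to be chosen after their values were seen. Alternatives covered scaling (DESeq2 1.42.0 size factors among them), fold, confidence level, low-count filter and FPKM. Python 3.11.15 was used with scipy 1.17.1 for intervals, pandas 2.3.3 and numpy 2.4.6 for tables, and matplotlib 3.10.9 for figures.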

Additional observations from a re-analysis of the deposited data

How the results depend on the processing

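All 41 members kept their call under total counts, DESeq2 size factors, upper-quartile factors, 99% intervals and no filter on low counts, and their FPKM ratios lay within the main intervals. With 5 CPM required, 40 did and Fads2 was left out. Where the interval had to clear 2-fold, 585 genes were called higher and 892 lower. The members called were then 1 higher and 2 lower, with 0 higher in SREBP control, 1 lower in sterol synthesis, 1 higher in export and 1 lower in fatty acid synthesis. Srebf1, Abca1, Idi1 and Fads1 lost their call. Without members sharing 10% or more of their exons with another gene, a setting chosen after seeing the data, the SREBP control median was 0.24. The median over the 41 genes turned from -0.02 to 0.02 with upper-quartile factors, which moved that of all genes to 0.03. No replicate could be left out, and no paired analysis was possible because each genotype has 1 library. Members with few counts, such as Fads2, have wide intervals.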

Other observations

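Some lipid genes below 1 CPM had counts in only the wild-type library. Elovl4 had 12 and 0 counts, Acsl6 had 13 and 0, Elovl7 had 7 and 0, and Ppara and Mlxipl each had 6 and 0. Others below 1 CPM had counts in both libraries. Ch25h, which makes an oxysterol, had 1 and 9 counts, Fabp4 had 7 and 11, Me1 7 and 7 and Ppargc1a 1 and 2. All of these were named after their counts were seen. A count of 0 allows up to 3 counts, or 0.206 CPM in the knockout library, and no fold is given for these genes.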
